A study of Mus musculus with 24 samples.

Results

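The effect of TGFB1, the cytokine transforming growth factor beta 1, on mouse ovarian surface epithelial cells was compared between attached monolayers and spheroids held in suspension. The quantity followed for each gene was the interaction: the TGFB1 effect in spheroids minus the TGFB1 effect in monolayers. All 12 libraries came from 1 cell line, m1102, out of 24 libraries in the series, and formed 4 groups of 3. The groups were untreated monolayers, monolayers given TGFB1 at 10 ng/mL, untreated spheroids on plates of ultra low attachment, and spheroids made from cells that had received TGFB1 at 10 ng/mL for 4 days before suspension. The medium held serum, insulin with transferrin and selenium, and epidermal growth factor in every group. The length of the monolayer treatment, the time in suspension, and whether TGFB1 was kept in the suspension medium are not given in the sources used here. The titles call the 6 monolayer libraries re-analysed and say this of no spheroid library, so a difference in origin cannot be told apart from one in culture, although each TGFB1 effect was taken within 1 culture. The labels of untreated monolayers 1 and 2 name 1 common earlier sample but held different values (r = 0.991). Nothing says that the 3 libraries of a group came from separate cultures, and the spread that the p-values measure may then be technical.

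The members were all genes of the deposited table. Of its 35687 rows, 13509 were tested, namely those that were at 1 scaled TPM or more in 3 or more of the 12 libraries. A gene at that level only in the 3 libraries of 1 group passed through that group alone, which favours an effect there. Scaled TPM is the authors' transcripts-per-million value, which is relative to gene length and was scaled per library. Every effect below is a difference of log2(scaled TPM + 1), which understates the change of low genes, and is given as a log2 difference ± its standard error with n = 3 libraries per group. Each standard error rests on 1 spread per gene, shared by all groups and all 12 libraries, so both cultures have equal errors. Where the spread is wider in spheroids, a clear monolayer effect can therefore stay uncalled. With libraries weighted by quality, called effects went from 2284 to 6431 in monolayers and from 4810 to 5175 in spheroids. Calls rest on limma, with p adjusted by Benjamini-Hochberg over all tested genes of a comparison and a limit of 0.05.

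The ovarian surface epithelium is the single cell layer that covers the ovary, and it repairs the surface after each ovulation. TGFB1 binds a type II and a type I receptor kinase, the receptors phosphorylate SMAD2 and SMAD3, and these enter the nucleus with SMAD4 to change transcription. Known outcomes in epithelia include matrix deposition, loss of junctions and, through SMAD7, SKI and PMEPA1, feedback on the pathway itself. Cells held in suspension lose integrin contact with the plate and rest on contacts with each other and with the matrix they lay down.

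Libraries of a group correlated at r = 0.965 to 0.994, and 2 stood apart from their group: untreated spheroid 3 (r = 0.970 with each of the others, which correlated at 0.991) and TGFB1 monolayer 1 (0.983 and 0.984, against 0.994). Mitochondrially encoded genes took 6.6% to 8.68% of the signal in the 9 libraries other than TGFB1 spheroids, and 7.24%, 13.9% and 12.1% in TGFB1 spheroids 1 to 3. Markers of the ovarian surface and mesothelium were present, 11 of 12 at 1 or more in at least 3 libraries, with Krt8 under 1 in all 12. Their summed level was 2388 to 2532 in untreated and 1208 to 1627 in TGFB1 monolayers, and 254 to 463 in untreated and 227 to 457 in TGFB1 spheroids. Krt18 held a large part of the spheroid sums, with overlapping levels of 81.3 to 164 in untreated and 110 to 323 in TGFB1 spheroids. Msln was lower in TGFB1 spheroids without overlap (39.7 to 78.9 and 17.8 to 27.2), as was Gpm6a (29.4 to 60.0 and 6.42 to 13.6). The same held for Upk3b, Lrrn4, Nkain4 and Wt1, while Upk1b, Krt7 and Bnc1 overlapped. Of the markers of other cell types, 6 of 8 leukocyte genes, including Ptprc, and 3 of 6 endothelial genes, Kdr, Tek and Tie1, stayed under 1 in every library. The leukocyte marker Cd68 was at 14.2 to 65.8 in untreated and 11.5 to 62.5 in TGFB1 spheroids, and at 17.7 to 25.3 and 7.03 to 9.52 in the corresponding monolayers. Of 7 granulosa and theca markers, 3 were at 1 or more in at least 3 libraries, while Cyp19a1, Fshr and Amh stayed under 1 in all. Their summed level was 293 to 336 in untreated and 102 to 200 in TGFB1 monolayers, and 1455 to 2324 in untreated and 422 to 755 in TGFB1 spheroids. Star, the mitochondrial cholesterol carrier of steroid synthesis, held most of that sum in each group (1277 to 2259 in untreated and 388 to 687 in TGFB1 spheroids), and Cyp11a1, the side-chain cleavage enzyme, was at 35.3 to 152 and 0.502 to 41.1 in those spheroids. The other expressed marker, Foxl2, did not fall. It was at 23.7 to 28.7 in untreated and 26.0 to 34.1 in TGFB1 spheroids, and at 16.9 to 19.2 and 21.8 to 22.9 in the corresponding monolayers. Of 6 fibroblast markers, 5 were at 1 or more in at least 3 libraries, with a summed level of 1511 to 1716 and 683 to 717 in untreated and TGFB1 monolayers and 301 to 338 and 432 to 1091 in the corresponding spheroids. Dcn held most of that sum in each group, at 232 to 256 in untreated and 388 to 1064 in TGFB1 spheroids. Pdgfrb also rose in spheroids (0 to 0.0286 and 3.11 to 9.47). Dpt fell there (31.4 to 53.9 and 0.106 to 13.5), Thy1 read 13.9 to 41.3 and 9.64 to 19, and Pdgfra overlapped. The part of these markers in the results was not tested. In bulk RNA, fewer cells of a type and less RNA per cell cannot be told apart.

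TGFB1 had a different effect in the 2 cultures for 2138 genes, 15.8% of those tested, of which 1094 differed at least 2-fold. The interaction was higher in spheroids for 1178 genes (8.72%) and lower for 960 (7.11%). When each library was rescaled to the same summed signal, the median of all genes moved from -0.01 to -0.21 and the split became 732 higher and 1903 lower. TGFB1 by itself raised 1232 genes (9.12%) and lowered 1052 (7.79%) in monolayers, 2284 in all (16.9%). In spheroids it raised 2544 (18.8%) and lowered 2266 (16.8%), 4810 in all (35.6%). Of the 2138 genes, 1477 (69.1%) had the larger of their 2 effects in spheroids, and 2130 (99.6%) kept the direction of the interaction when it was taken on the linear scale. The share with the larger effect in spheroids was not taken over all tested genes, so 69.1% cannot be read as particular to the called ones. The count of 2138 became 1307 without TGFB1 spheroid 2 and 1393 without untreated monolayer 3.

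**Figure D1:**
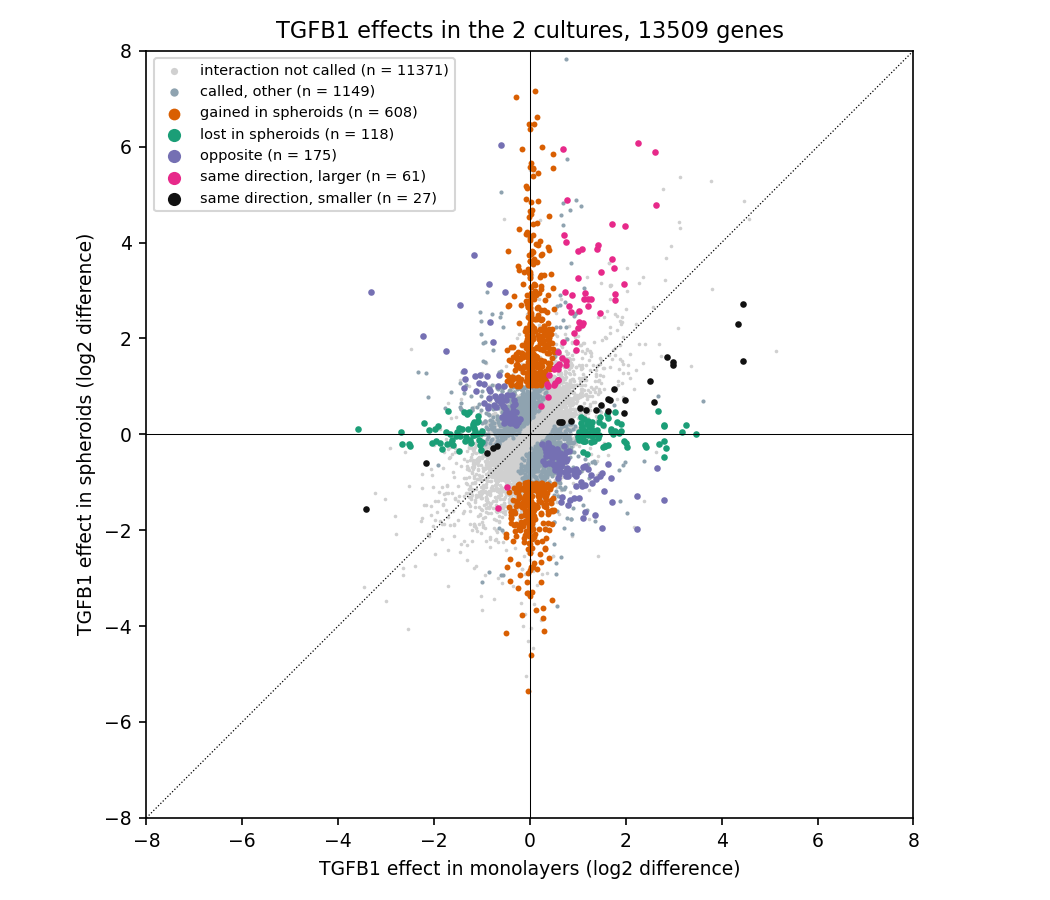
Each point is 1 of 13509 tested genes, placed by its TGFB1 effect in monolayers (x axis) and in spheroids (y axis), both as log2 differences of scaled TPM + 1, with the dotted line at equal effects. The 608 gained responses lie along the vertical axis, the 118 lost ones along the horizontal axis, and the 175 opposite ones at the upper left and lower right.

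Responses were opposite for 175 genes (1.3% of those tested), meaning that both effects were called, with opposite signs. They were gained for 608 genes (4.5%), with a called effect of at least 2-fold in spheroids and an uncalled effect under 0.5 log2 in monolayers. They were lost for 118 genes (0.873%), by the same limits with the cultures exchanged. In both classes the uncalled effect was judged with the shared spread, so it need not mean that a response was absent. A further 61 genes responded in the same direction with a larger effect in spheroids and 27 with a smaller one, and 1149 (8.51%) met none of these definitions. The opposite count was 89, 98 and 80 without untreated monolayer 1, 2 or 3, 105 and 107 without TGFB1 monolayer 1 or 2, and 267 without untreated spheroid 3. The gained count was 311 without TGFB1 spheroid 2, and the lost count was 60 without TGFB1 monolayer 1 and 77 without untreated monolayer 1.

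Among the opposite responses, 76 genes rose with TGFB1 in spheroids and fell in monolayers, and 99 fell in spheroids and rose in monolayers. In 168 of the 175, the TGFB1 and untreated libraries did not overlap in either culture. The class favours this, since both effects must be called, and it also held for all 61 larger and all 27 smaller same-direction responses. The share over all tested genes was not taken. The named genes are among those with the largest interactions in each direction, and all of them are protein-coding in GENCODE M21 on the mouse build GRCm38, from which the positions are taken. All 11 kept their interaction call in each of the 12 fits that left out 1 library. An opposite response also needs both single effects to be called, which was not followed gene by gene in these fits. Of the 175, 87, 94 and 79 stayed opposite without untreated monolayer 1, 2 or 3.

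A leading gene that fell in monolayers and rose in spheroids was Slpi (ENSMUSG00000017002, chromosome 2, 164354070 to 164389095), which encodes a secreted inhibitor of leukocyte serine proteases. Its scaled TPM was 245, 195 and 198 in untreated and 7.93, 32 and 32.3 in TGFB1 monolayers, and 159, 176 and 132 in untreated and 826, 1627 and 1318 in TGFB1 spheroids. The 3 treated monolayers were lowest of all libraries and the 3 treated spheroids highest, with the untreated libraries of both cultures between them. The TGFB1 effect was -3.31 ± 0.43 in monolayers and 2.96 ± 0.43 in spheroids, an interaction of 6.27 ± 0.61 (adjusted p = 0.000131).

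Chil1 (ENSMUSG00000064246, chromosome 1, 134182176 to 134190181), a secreted chitinase-like glycoprotein, had the largest interaction of the named opposite genes, 6.64 ± 0.22 (adjusted p = 1.09e-07). It read 3.02, 2.20 and 2.11 in untreated and 0.97, 1.63 and 1.17 in TGFB1 monolayers, and 6.74, 5.85 and 6.24 in untreated and 572, 403 and 459 in TGFB1 spheroids. The spheroid effect was 6.03 ± 0.16, and the fall in monolayers (-0.61 ± 0.16) took place at levels near 1 to 3. Prg4, which encodes the lubricating proteoglycan lubricin, read 1.98, 2.93 and 3.27 in untreated and 0.43, 0.98 and 0.553 in TGFB1 monolayers, and 0.683, 0.703 and 0.637 in untreated and 23.9, 19 and 21.3 in TGFB1 spheroids. Its 3 treated spheroids stood above all other libraries (interaction 4.91 ± 0.24, adjusted p = 1.11e-06).

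Rspo3 and Actn3 were lower in untreated spheroids than in untreated monolayers. Rspo3, a secreted enhancer of WNT signaling, read 5.94, 4.88 and 5.48 in untreated and 1.88, 3.22 and 2.72 in TGFB1 monolayers, and 1.58, 1.11 and 1.81 in untreated and 17, 28.1 and 18.8 in TGFB1 spheroids. Actn3, an actin crosslinking protein of fast muscle fibres, was at 9.63 to 13.9 in untreated monolayers, 2.09 to 4.71 in TGFB1 monolayers, 0.145 to 0.362 in untreated spheroids and 4.69 to 10.1 in TGFB1 spheroids. For both genes TGFB1 monolayers lay below and TGFB1 spheroids above the untreated libraries of their culture, without overlap, with interactions of 3.98 ± 0.29 (adjusted p = 1.3e-05) and 4.17 ± 0.38 (adjusted p = 8.34e-05).

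In the other direction, Gdf6 (ENSMUSG00000051279, chromosome 4, 9844372 to 9862345), a ligand of the BMP branch of the TGF-beta family, rose in monolayers and fell in spheroids. Its scaled TPM was 13.2, 9.71 and 15.2 in untreated and 132, 82.3 and 72.5 in TGFB1 monolayers, and 7.74, 8.35 and 8.97 in untreated and 2.79, 1.39 and 4.26 in TGFB1 spheroids. The treated monolayers were several times above every other library and the treated spheroids below every other library. The TGFB1 effects were 2.79 ± 0.29 and -1.37 ± 0.29, and the interaction was -4.16 ± 0.40 (adjusted p = 0.000124). Fbln5, an elastic fibre glycoprotein, was abundant in monolayers and low in spheroids, at 289, 300.2 and 332 in untreated and 1049.6, 1037 and 953 in TGFB1 monolayers, and 6.46, 5.59 and 17.4 in untreated and 3.15, 1.90 and 2.95 in TGFB1 spheroids. TGFB1 widened that difference between the cultures, with an interaction of -3.14 ± 0.43 (adjusted p = 0.00105).

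Synpo (ENSMUSG00000043079, chromosome 18, 60593973 to 60660142), which encodes the actin-associated protein synaptopodin, read 54.7, 64.4 and 61.7 in untreated and 466, 356 and 335 in TGFB1 monolayers, and 86.5, 85.4 and 112 in untreated and 67.4, 46.7 and 59.8 in TGFB1 spheroids. The groups did not overlap within either culture, and the fall in spheroids (-0.70 ± 0.16) was much smaller than the rise in monolayers (2.65 ± 0.16). Dpysl3, a cytoskeletal regulator of growth cones, read 16.1, 22 and 19 in untreated and 125, 81.6 and 77.5 in TGFB1 monolayers, and 76.9, 69.7 and 58 in untreated and 25.2, 22.2 and 35.9 in TGFB1 spheroids. Here the treated spheroids returned toward the level of untreated monolayers, and the interaction was -3.52 ± 0.30 (adjusted p = 4.75e-05). Etl4 (interaction -3.48 ± 0.45, adjusted p = 0.000732) and Kirrel3, an immunoglobulin-family adhesion molecule (-4.22 ± 0.65, adjusted p = 0.00208), had the same signs. For Kirrel3, untreated spheroid 3 stood several-fold above the other untreated spheroids, at 6.67, 5.42 and 29.8 in the 3 untreated against 1.83, 1.61 and 2.33 in the 3 treated spheroids.

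**Figure D2:**
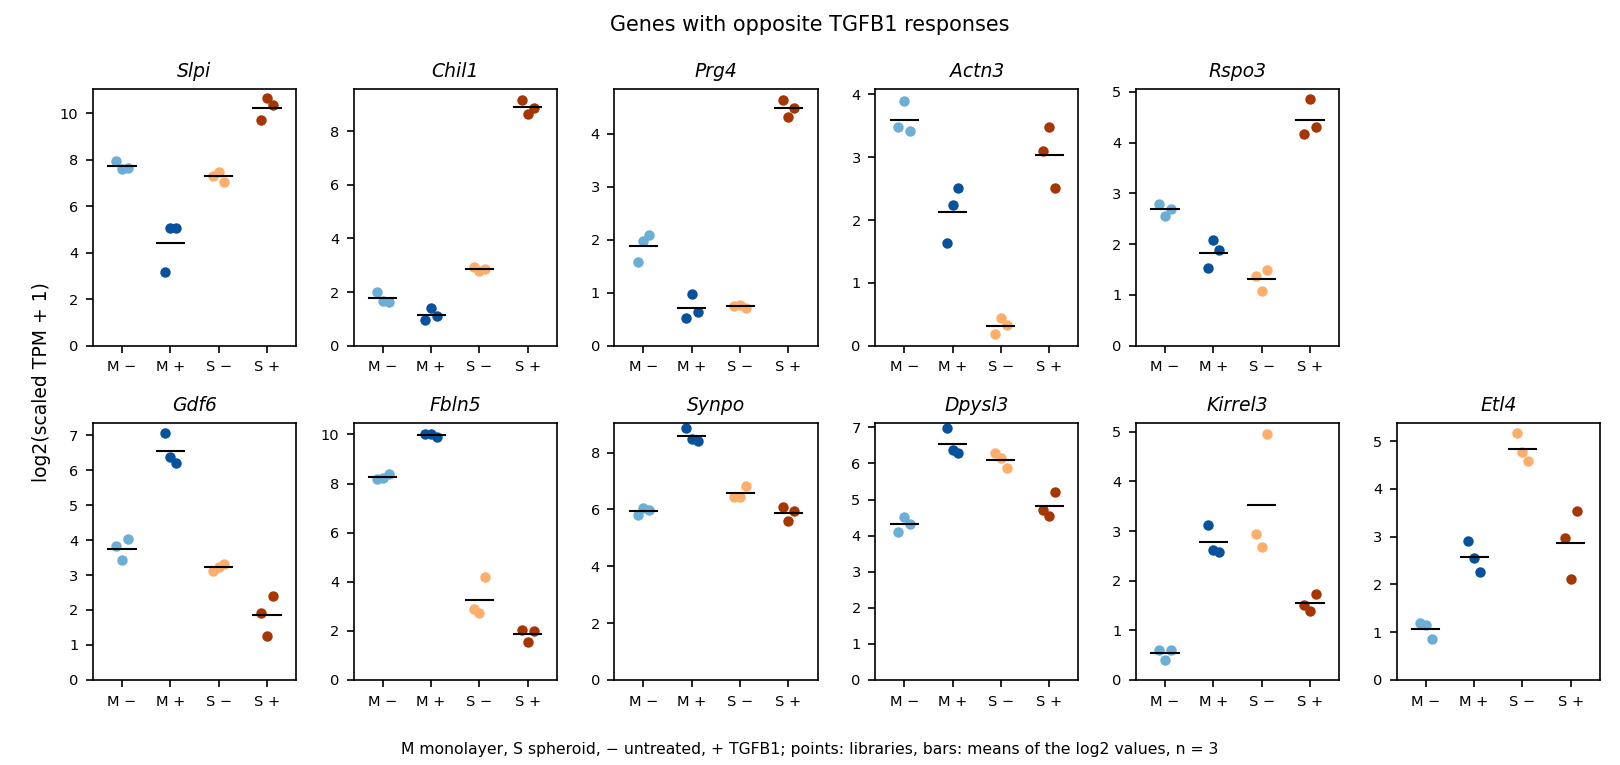
Levels of 11 genes with opposite responses as log2(scaled TPM + 1) on the y axis, with 1 point per library and a bar at the mean of 3, for monolayers (M) and spheroids (S) without (−) and with (+) TGFB1. In the upper row the monolayers fall and the spheroids rise with TGFB1, and in the lower row the reverse holds.

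Of the 608 gained responses, 357 were rises and 251 falls. For 273 of them both monolayer means were under 1, so the gene was hardly expressed in monolayers with or without TGFB1, and such genes made up 183 of the rises and 90 of the falls. For those 90, a fall in monolayers could hardly have been read.

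Timp1 (ENSMUSG00000001131, chromosome X, 20870166 to 20874735), which encodes an inhibitor of matrix metalloproteinases, was an abundant gained rise. Its scaled TPM was 179, 159 and 181 in untreated and 287, 166 and 156 in TGFB1 monolayers, and 209, 194 and 411 in untreated and 10979, 12693 and 10181 in TGFB1 spheroids. The monolayers overlapped, and all treated spheroids lay far above all untreated ones. The effect was 0.18 ± 0.28 in monolayers, with a 95% confidence interval of -0.44 to 0.80, and 5.45 ± 0.28 in spheroids, an interaction of 5.28 ± 0.40 (adjusted p = 1.87e-05). Col5a3, a chain of type V collagen, was under 1 in all libraries other than the TGFB1 spheroids, where it read 149.6, 360.5 and 153 (interaction 7.06 ± 0.39, adjusted p = 2.46e-06).

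Vsig8, an immunoglobulin-domain membrane protein, had the largest gained interaction of the named genes, 7.33 ± 0.46 (adjusted p = 5.35e-06). It read 1.29, 0.682 and 0.777 in untreated and 0.331, 0.809 and 0.545 in TGFB1 monolayers, and 1.45, 1.30 and 2.04 in untreated and 184, 567 and 366 in TGFB1 spheroids. Aqp1, a water channel, read 322, 72.6 and 42 in TGFB1 spheroids and 0.0392 to 0.468 in the other 9 libraries. Prss42, a serine protease known from testis, read 167, 90.5 and 51 against 0.0333 to 0.252. For both genes the 3 treated spheroids alone were above 1, with interactions of 6.48 ± 0.77 and 6.36 ± 0.45. Like Col5a3, they passed the filter only through these 3 libraries, which favours a gained rise, and were not tested without any 1 of them.

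The treated spheroids differed widely among themselves for S100a8, a subunit of calprotectin, and Serpinb2, the plasminogen activator inhibitor PAI-2. S100a8 read 19.6, 850.3 and 479.8 in TGFB1 spheroids and 0.668 to 2.73 in untreated ones, and Serpinb2 read 94.5, 5951 and 3272 and 4.64 to 18. TGFB1 spheroid 1 was by far the lowest of the 3 for both, and both stayed under 3 in monolayers. The interactions were 6.39 ± 1.48 (adjusted p = 0.0152) and 6.49 ± 1.67 (adjusted p = 0.0247). The Serpinb2 call was lost in 6 of 12 fits without 1 library, those without untreated monolayer 1, 2 or 3, TGFB1 monolayer 2 or 3, or TGFB1 spheroid 2, with an adjusted p of at most 0.0555.

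The leading gained falls were in genes that were high in untreated spheroids and low in monolayers. Akr1cl, an aldo-keto reductase, read 0.625, 1.24 and 1.13 in untreated and 1.58, 1.46 and 1.23 in TGFB1 monolayers, and 571, 597 and 475 in untreated and 10.3, 10.8 and 239.9 in TGFB1 spheroids. Kctd14 read 199, 235 and 127 in untreated and 0.289, 0.373 and 48 in TGFB1 spheroids, Clec2h, a lectin-like receptor, 103, 118 and 41.7 and 0.161, 0.335 and 22.4, and Cyfip2, a regulator of actin branching, 55.8, 45.7 and 19.8 and 0.393, 0.381 and 14.3. All 4 genes were under 2 in every monolayer library, so that a fall could hardly be read there and the interaction is close to the spheroid effect alone. In each, TGFB1 spheroids 1 and 2 were low while TGFB1 spheroid 3 was much higher, and the interactions were -4.39 ± 1.27 (adjusted p = 0.0386), -5.32 ± 1.51 (adjusted p = 0.0367), -4.63 ± 1.28 (adjusted p = 0.0334) and -3.90 ± 1.07 (adjusted p = 0.0329). These 4 calls were each lost in 10 of 12 fits without 1 library, all except those without untreated spheroid 3 or TGFB1 spheroid 3, with adjusted p up to 0.0912 for Akr1cl. Spink4, a secreted protease inhibitor, and Inpp5j, an inositol phosphatase, had the same pattern and kept their calls in all 12 fits. Spink4 read 104, 98.7 and 148 in untreated and 3.19, 4.44 and 22.4 in TGFB1 spheroids (interaction -4.11 ± 0.84, adjusted p = 0.00833), and Inpp5j 95.4, 88.6 and 42.9 and 1.69, 3.06 and 24.7 (-3.92 ± 0.94, adjusted p = 0.0175).

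Lost responses comprised 67 rises and 51 falls in monolayers. In 39 of the 118, both spheroid means were under 1, so that no response could be read in spheroids. Pmp2, a fatty acid binding protein of myelin, was of this kind: it read 10.3, 12.5 and 8.26 in TGFB1 monolayers, 0, 0.0429 and 0 in untreated ones, and was listed at 0 in all 6 spheroid libraries. Pmp2 passed the filter only through the TGFB1 monolayers.

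Other lost rises were in genes that spheroids did express. Cd200 (ENSMUSG00000022661, chromosome 16, 45382135 to 45409053), a membrane glycoprotein that restrains myeloid cells, read 42.2, 38.7 and 36.1 in untreated and 376, 241 and 238 in TGFB1 monolayers, and 30.2, 24.3 and 19.8 in untreated and 11, 22.2 and 21.1 in TGFB1 spheroids. The treated monolayers stood far above the untreated ones, while the spheroid groups overlapped. The spheroid effect was -0.47 ± 0.26, with a 95% confidence interval of -1.04 to 0.10, and the interaction was -3.28 ± 0.37 (adjusted p = 0.000321). With equal summed signal the Cd200 effect in spheroids was a called fall of -0.65 (adjusted p = 0.0499), so that it was not a lost response under that scaling. Nuak1 (ENSMUSG00000020032, chromosome 10, 84370905 to 84440597), an AMPK-related kinase induced through SMADs, read 18.4, 20.5 and 19.6 in untreated and 136, 95.6 and 93.4 in TGFB1 monolayers, and 8.18, 7.42 and 7.25 in untreated and 4.68, 7.05 and 7.95 in TGFB1 spheroids. Its spheroid effect lay between the bounds -0.60 to 0.18, against 2.40 ± 0.18 in monolayers, and the interaction was -2.61 ± 0.25 (adjusted p = 0.000111).

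For Acsbg1 and Adamts4, untreated spheroids were already within or above the range of TGFB1 monolayers. Acsbg1, an acyl-CoA synthetase, read 1.63, 1.85 and 2.08 in untreated and 35.4, 21 and 20.6 in TGFB1 monolayers, and 88, 87.1 and 62 in untreated and 97.6, 72.1 and 74.7 in TGFB1 spheroids. Adamts4, an aggrecan-cleaving protease, read 1.12, 0.861 and 1.11 in untreated and 21.2, 11.2 and 10.3 in TGFB1 monolayers, and 14, 12.4 and 17 in untreated and 7.38, 13.9 and 15 in TGFB1 spheroids. The spheroid groups overlapped for both, with spheroid effects of -0.41 to 0.51 and -0.91 to 0.34 as 95% confidence intervals, and interactions of -3.13 ± 0.30 (adjusted p = 0.000106) and -3.12 ± 0.40 (adjusted p = 0.000734). Ccl17, a chemokine that attracts T cells, had an interaction of -3.07 ± 0.75 (adjusted p = 0.0192), and its call was lost without untreated monolayer 2 (adjusted p = 0.0507).

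Of the named genes, the largest lost fall was that of Cyp2s1 (ENSMUSG00000040703, chromosome 7, 25802475 to 25816913), a cytochrome P450 enzyme. It read 142, 125 and 108 in untreated and 2.61, 14.8 and 18.5 in TGFB1 monolayers, and 8.43, 9.96 and 5.81 in untreated and 5.78, 13.6 and 7.88 in TGFB1 spheroids. TGFB1 monolayer 1 was below all spheroids, the other TGFB1 monolayers were just above them, and the spheroid groups overlapped. The spheroid effect of 0.11 ± 0.53 had a wide 95% confidence interval of -1.05 to 1.27. Gda, guanine deaminase, read 9.59, 12 and 14 in untreated and 0.311, 1.49 and 1.49 in TGFB1 monolayers, and 69.9, 67.3 and 39.6 in untreated and 25.1, 66.7 and 71.9 in TGFB1 spheroids, an interaction of 2.46 ± 0.56 (adjusted p = 0.0138), and Fam46c, a poly(A) polymerase, had one of 2.43 ± 0.53 (adjusted p = 0.0119). C3, the central complement component, read 38.8, 60.01 and 50.7 in untreated and 3.79, 9.31 and 8.58 in TGFB1 monolayers, and 49.3, 42.1 and 36 in untreated and 13.6, 81.1 and 71.8 in TGFB1 spheroids. The TGFB1 spheroids spread over both sides of the untreated ones, and the C3 call (2.72 ± 0.78, adjusted p = 0.0377) was lost in 11 of 12 fits without 1 library, all except that without TGFB1 spheroid 1. Dbp, a circadian transcription factor (2.26 ± 0.59, adjusted p = 0.0257), lost its call in 5 of 12 fits, those without untreated monolayer 1, 2 or 3 or untreated spheroid 1 or 2, and Arhgef3, a RhoA exchange factor (2.32 ± 0.62, adjusted p = 0.028), in 7 of 12, the 3 without an untreated monolayer and those without TGFB1 monolayer 1, untreated spheroid 1 or TGFB1 spheroid 2 or 3.

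**Figure D3:**
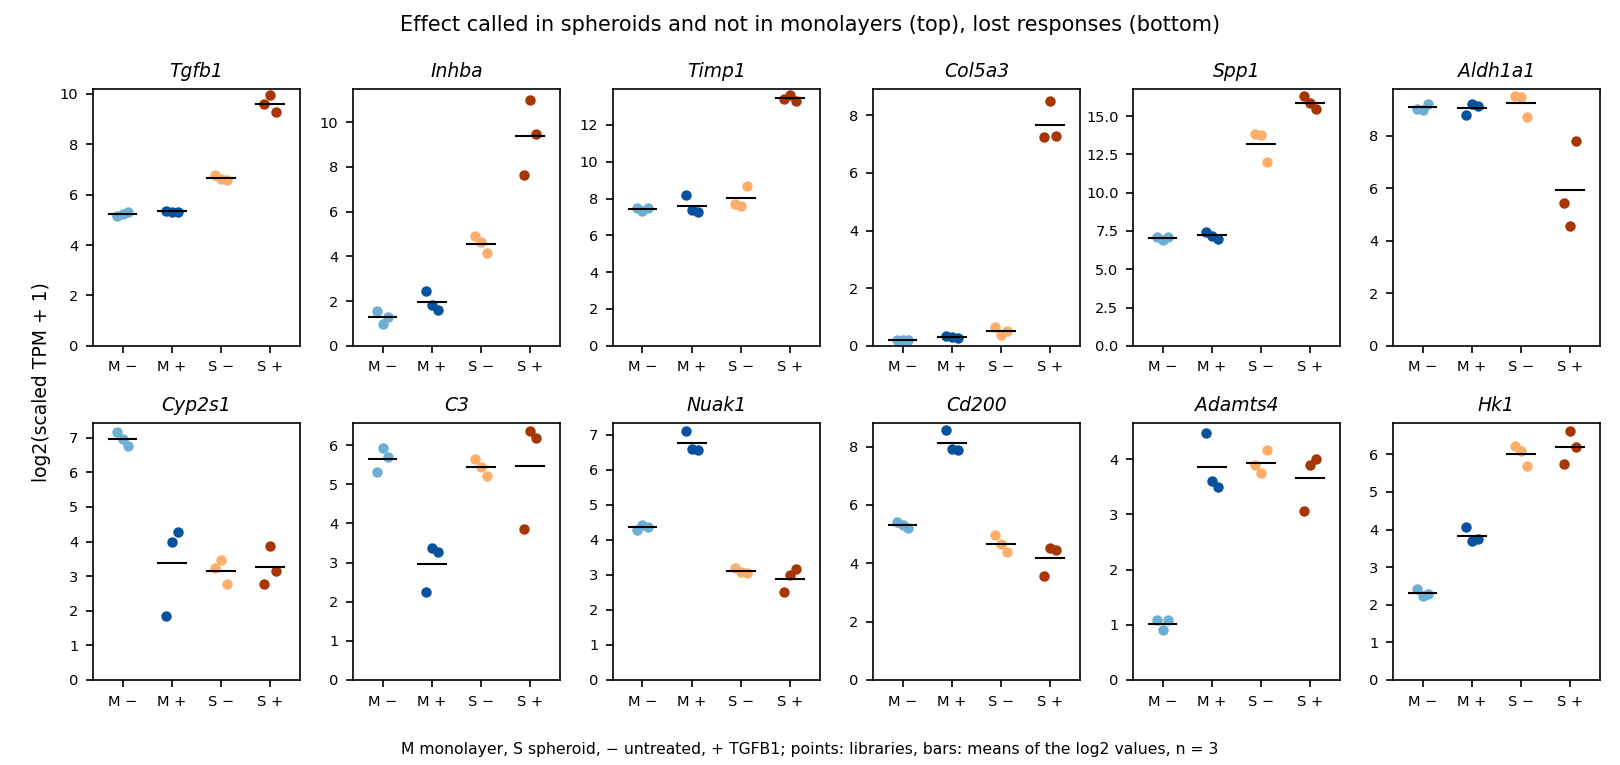
Levels as log2(scaled TPM + 1) for 6 genes with an effect in spheroids and none called in monolayers (upper row) and 6 genes with lost responses (lower row), 1 point per library with a bar at the mean of 3, in monolayers (M) and spheroids (S) without (−) and with (+) TGFB1. Timp1 and Col5a3 rise in the 3 TGFB1 spheroids, and Cd200 and Nuak1 rise in the 3 TGFB1 monolayers.

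Within the pathway itself, ligand genes had called interactions in both directions. For these and later lists, the shares over all tested genes are 9.12% raised and 7.79% lowered in monolayers, 18.8% and 16.8% in spheroids, and 8.72% higher and 7.11% lower interactions. Of 16 tested genes for ligands and latency proteins, TGFB1 raised 5 and lowered 0 in monolayers, and raised 9 and lowered 4 in spheroids. The interaction was higher for 4, Tgfb1, Tgfb3, Inhba and Bmp4, and lower for 4, Inhbb, Gdf11, Gdf15 and Ltbp3, and its median was 0.19 beside -0.01 over all genes. Tgfb1 (ENSMUSG00000002603, chromosome 7, 25687002 to 25705077), the gene of the cytokine that was added, read 34.6, 36.5 and 38.7 in untreated and 40.2, 38.8 and 39.1 in TGFB1 monolayers, and 107, 98.1 and 93.8 in untreated and 776, 991 and 624 in TGFB1 spheroids. Its monolayer groups lay next to each other, and all 3 treated spheroids were several-fold above the untreated ones. The effect was 0.10 ± 0.13 in monolayers, between bounds of -0.19 to 0.40, and 2.96 ± 0.13 in spheroids, an interaction of 2.86 ± 0.19 (adjusted p = 8.29e-06).

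Inhba (ENSMUSG00000041324, chromosome 13, 16011851 to 16031621), whose product forms activin A, read 1.96, 0.976 and 1.43 in untreated and 4.46, 2.54 and 2.03 in TGFB1 monolayers, and 29, 23.6 and 16.7 in untreated and 201, 2029.8 and 718 in TGFB1 spheroids. TGFB1 spheroid 2 was many-fold above TGFB1 spheroid 1, and the lowest treated spheroid was still above the highest untreated one. The interaction was 4.14 ± 0.89 (adjusted p = 0.0108). Inhbb, which forms activin B, went the other way, at 40.3, 35.9 and 40.8 in untreated and 48.6, 49.9 and 47.4 in TGFB1 monolayers, and 28.3, 29.96 and 41.8 in untreated and 5.93, 2.29 and 10.6 in TGFB1 spheroids. Its fall in spheroids (-2.40 ± 0.34) had no called counterpart in monolayers (0.31 ± 0.34), and the interaction was -2.71 ± 0.49 (adjusted p = 0.00436).

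Tgfb3, the third TGF-beta isoform, was at 47.6 to 65.7 across monolayers, 8.08 to 18.7 in untreated spheroids and 37 to 69.6 in TGFB1 spheroids (interaction 1.83 ± 0.39, adjusted p = 0.0105). Bmp4, a BMP ligand, was at 97.8 to 125 in untreated and 29.5 to 83.5 in TGFB1 monolayers, and at 1.12 to 8.73 and 13.7 to 37.2 in spheroids (3.59 ± 0.80, adjusted p = 0.0132). For Tgfb3 and Bmp4, untreated spheroids were below all monolayers, and TGFB1 spheroids stood above untreated ones without overlap. Gdf15, a stress-induced member of the family, was an opposite gene at low levels, 2.23 to 2.82 and 5.82 to 6.84 in monolayers and 1.21 to 3.56 and 0.736 to 1.48 in spheroids (-1.79 ± 0.35, adjusted p = 0.00651). The related ligand Gdf11 had an interaction of -1.85 ± 0.32 (adjusted p = 0.00363). Ltbp3, a latent TGF-beta binding protein, rose in both cultures, less in spheroids (-0.65 ± 0.16, adjusted p = 0.021), a call lost in 5 of 12 fits (without untreated monolayer 1 or 3, TGFB1 monolayer 2 or 3, or untreated spheroid 2).

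Among 13 tested receptor and co-receptor genes, 2 rose and 2 fell in monolayers and 5 rose and 5 fell in spheroids. The interaction was higher for 1 and lower for 1, a share near the 15.8% called over all genes. Acvrl1, the type I receptor ALK1, was at 1.79 to 3.73 and 6.05 to 8.13 in untreated and TGFB1 monolayers and at 4.56 to 19.2 and 1.33 to 5.11 in the corresponding spheroids (-2.77 ± 0.65, adjusted p = 0.016). Acvr1, the type I receptor ALK2, rose more in spheroids (0.87 ± 0.24, adjusted p = 0.0314), although its rise in monolayers was not called with libraries shifted to the same median, and the interaction's call was lost in 9 of 12 fits, all except those without TGFB1 monolayer 1, untreated spheroid 3 or TGFB1 spheroid 3. The receptors of TGFB1 itself had interactions of -0.82 ± 0.25 (adjusted p = 0.0517) for Tgfbr1 and -1.08 ± 0.37 (adjusted p = 0.073) for Tgfbr2, neither of them called.

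Of 16 SMAD and feedback genes, 5 rose and 1 fell in monolayers and 9 rose and 3 fell in spheroids, and the interaction was higher for 4 and lower for 2. The higher count became 2 without untreated monolayer 2 or 3, untreated spheroid 1 or 2, or TGFB1 spheroid 2. The lower count became 1 in 8 of 12 fits without 1 library, all except those without TGFB1 monolayer 1, untreated spheroid 2, or TGFB1 spheroid 1 or 3. Pmepa1, a feedback inhibitor that removes SMADs from the receptors, read 119, 112 and 109 in untreated and 523, 332 and 322 in TGFB1 monolayers, and 43.3, 40.3 and 33.4 in untreated and 593, 443 and 318 in TGFB1 spheroids. It rose in both cultures, by 1.75 in monolayers and 3.46 in spheroids, without overlap of treated and untreated libraries (interaction 1.71 ± 0.32, adjusted p = 0.00527). Dact1, an adaptor of TGF-beta and WNT signaling, was under 2 in all monolayers and read 2.79, 13.3 and 5.05 in TGFB1 spheroids against 0.113, 0.0847 and 0.0441 in untreated ones (2.11 ± 0.52, adjusted p = 0.0199), a call lost with a pseudocount of 5. Smad5, a BMP-branch SMAD, was an opposite gene with small effects, 0.39 ± 0.08 in monolayers and -0.36 ± 0.08 in spheroids (-0.75 ± 0.12, adjusted p = 0.00208). The corepressor Ski (0.95 ± 0.26, adjusted p = 0.0295), Tgif2 (-0.70 ± 0.19, adjusted p = 0.0339) and Smad9 (1.36 ± 0.40, adjusted p = 0.0421) were also called. Among the 12 fits without 1 library, Ski was called in 5 (without untreated monolayer 1, TGFB1 monolayer 1, untreated spheroid 3, or TGFB1 spheroid 1 or 3). Tgif2 was called in 4 of them, without TGFB1 monolayer 1, untreated spheroid 2, or TGFB1 spheroid 1 or 3. Smad9 was called in 4, without any 1 of the TGFB1 monolayers or untreated spheroid 3. The inhibitory Smad7 and the corepressor Skil had interactions of 0.36 ± 0.20 (adjusted p = 0.268) and 0.09 ± 0.25 (adjusted p = 0.843), which were not called.

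Of the Id genes, which encode inhibitors of basic helix-loop-helix factors and are known BMP targets, Id1, Id3 and Id4 had higher interactions. Id1 read 558, 512 and 545 in untreated and 209, 394 and 386 in TGFB1 monolayers, and 77.3, 75.1 and 142 in untreated and 423, 284 and 271 in TGFB1 spheroids. Id3 read 295, 281 and 295 in untreated and 68.1, 206 and 208 in TGFB1 monolayers, and 5.43, 6.13 and 6.76 in untreated and 45.4, 23.3 and 23.1 in TGFB1 spheroids. Id4 read 9.73, 10.9 and 11.5 in untreated and 1.63, 5.01 and 4.80 in TGFB1 monolayers, and 0.289, 0.235 and 0.381 in untreated and 3.61, 1.73 and 1.70 in TGFB1 spheroids. In all 3 genes every treated monolayer was below every untreated one, and every treated spheroid was above every untreated one. The rise in spheroids was called for each (1.76 ± 0.29, 2.08 ± 0.38 and 1.32 ± 0.30), whereas the fall in monolayers was called for Id4, at -1.37 ± 0.30 (adjusted p = 0.0113), and not for Id1, at -0.76 ± 0.29 (adjusted p = 0.0978), or Id3, at -1.02 ± 0.38 (adjusted p = 0.0936). The interactions were 2.52 ± 0.41 (adjusted p = 0.00256), 3.10 ± 0.54 (adjusted p = 0.00362) and 2.69 ± 0.43 (adjusted p = 0.00229), and Id2 had one of 0.98 ± 0.52 (adjusted p = 0.232).

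**Figure D4:**
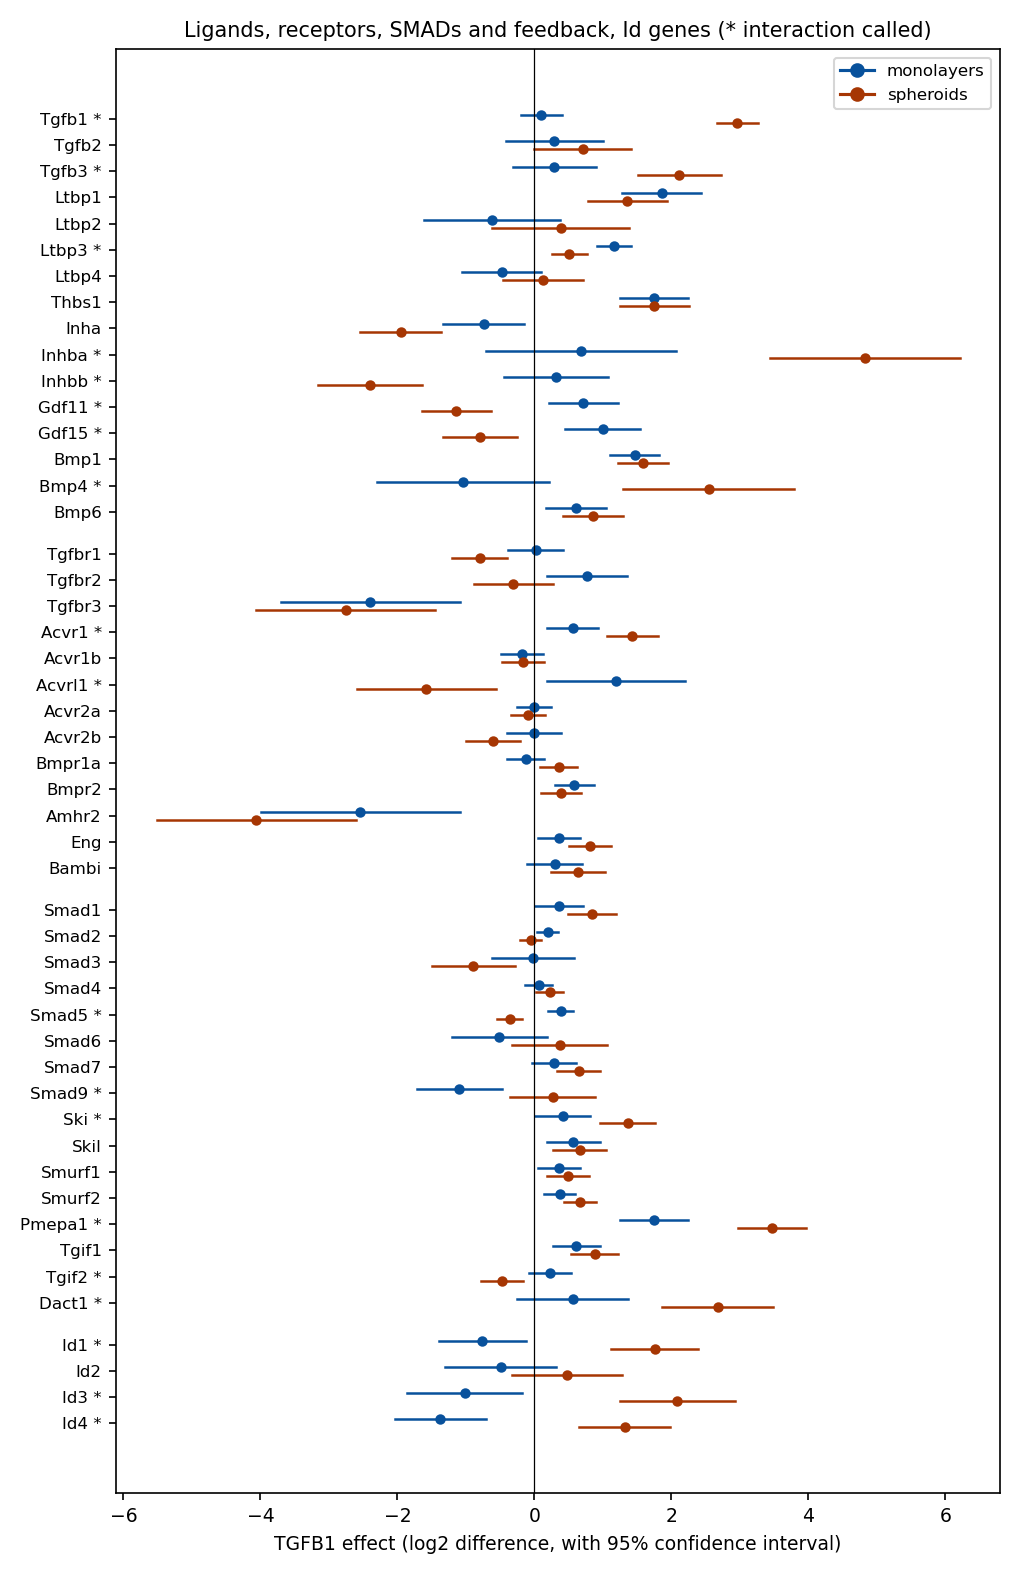
TGFB1 effects in monolayers and spheroids as log2 differences with 95% confidence intervals (x axis) for tested ligand and latency genes, receptors, SMADs with feedback genes, and 4 Id genes, from top to bottom, with an asterisk where the interaction was called. Tgfb1, Tgfb3 and Inhba have spheroid effects well above their monolayer effects, and Id1, Id3 and Id4 have effects on either side of 0.

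Across 23 tested target genes of TGF-beta and SMADs, 7 rose and 1 fell in monolayers and 10 rose and 2 fell in spheroids. The interaction was higher for 7 and lower for 4, with a median of 0.05. Fn1, fibronectin, read 159, 148 and 185 in untreated and 281, 280.0 and 271 in TGFB1 monolayers, and 492, 435 and 319 in untreated and 8515, 7649.7 and 4505 in TGFB1 spheroids. It rose in both cultures, and more in spheroids (effects 0.76 and 4.02, interaction 3.26 ± 0.31, adjusted p = 0.000111). Junb, an AP-1 subunit, rose in spheroids with an uncalled effect in monolayers (1.71 ± 0.19, adjusted p = 0.000268). Tgfbi, a matrix protein named for its induction by TGF-beta, was at 0.103 to 0.436 in monolayers and fell from 44.8, 37.1 and 18.9 in untreated to 4.50, 4.61 and 12.1 in TGFB1 spheroids (-2.23 ± 0.50, adjusted p = 0.0135). Lox, lysyl oxidase, had an uncalled interaction of 0.98 ± 0.39 (adjusted p = 0.114).

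Of 8 tested transcription factors of the epithelial-mesenchymal transition, 1 had a higher and 2 a lower interaction, beside 15.8% of all genes with a call in either direction. The higher gene, Snai3, failed the filter and was not tested without any 1 of the untreated monolayers, so that the higher count was 0 there. This count was 2 without TGFB1 monolayer 1, untreated spheroid 3 or TGFB1 spheroid 3. The lower count was 1 without any 1 of the untreated monolayers, TGFB1 monolayer 1 or 2, untreated spheroid 3 or TGFB1 spheroid 2. Snai1, the repressor Snail, read 1.36, 1.21 and 0.92 in untreated and 10.01, 4.26 and 4.49 in TGFB1 monolayers, and 3.23, 2.94 and 6.62 in untreated and 52.3, 42 and 33.5 in TGFB1 spheroids. It rose in both cultures, and its interaction of 1.43 ± 0.44 (adjusted p = 0.0513) was not called. Zeb1 (-0.56 ± 0.17, adjusted p = 0.045, called in 3 of 12 fits without 1 library, those without TGFB1 monolayer 3, untreated spheroid 1 or TGFB1 spheroid 3) and Tcf3 (-0.82 ± 0.17, adjusted p = 0.0099) had lower interactions, and Snai3, under 4 in all libraries, a higher one that was not called with a pseudocount of 0.1.

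Collagen genes went in both directions. Of 18 tested chains, the interaction was higher for 3 and lower for 7 (median -0.28), with 3 rises and 2 falls in monolayers and 7 rises and 8 falls in spheroids. The count of 3 became 1 without TGFB1 spheroid 2, a fit in which Col5a3 was not tested. The lower ones included 4 chains of basement membrane type IV. Col4a1 read 1456, 1697 and 1587 in untreated and 1942, 2379 and 2379 in TGFB1 monolayers, and 765, 698 and 1228 in untreated and 523, 438 and 525 in TGFB1 spheroids, an interaction of -1.31 ± 0.26 (adjusted p = 0.00766). Col4a2 (-0.89 ± 0.21, adjusted p = 0.0157), Col4a5 (-1.10 ± 0.22, adjusted p = 0.00693) and Col4a6 (-1.33 ± 0.30, adjusted p = 0.0123) had the same sign, and all 4 fell in spheroids. The fibrillar chain Col3a1 also fell in spheroids and not detectably in monolayers, at 385, 316 and 310.4 in untreated and 365, 435 and 446 in TGFB1 monolayers, and 568, 438 and 519 in untreated and 189, 139 and 220.0 in TGFB1 spheroids (-1.79 ± 0.23, adjusted p = 0.000817).

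Col1a1, the main chain of type I collagen, read 6.01, 6.74 and 7.02 in untreated and 214, 136 and 123 in TGFB1 monolayers, and 0.771, 0.483 and 0.764 in untreated and 7.68, 7.84 and 6.28 in TGFB1 spheroids. It rose in both cultures, by 4.34 in monolayers and 2.30 in spheroids, the smaller effect standing at levels under 10 (-2.04 ± 0.26, adjusted p = 0.000732). Col15a1 was under 2 in monolayers and read 310.2, 264 and 388 in untreated and 131, 23.9 and 90.9 in TGFB1 spheroids (-2.40 ± 0.67, adjusted p = 0.034), a call lost in 9 of 12 fits, all except those without a TGFB1 spheroid.

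Of 14 collagen processing genes, 8 rose and 1 fell in monolayers, 5 rose and 3 fell in spheroids, and 3 had a lower interaction and 0 a higher one. The count of 3 became 1 without any 1 of the monolayer libraries, untreated spheroid 1 or TGFB1 spheroid 2, and 5 with equal summed signal. Plod1, a lysyl hydroxylase, was the opposite gene among them, at 13.9, 14.5 and 14.1 in untreated and 28.4, 24.8 and 22.9 in TGFB1 monolayers, and 92.1, 80.00 and 51.4 in untreated and 33.7, 35.6 and 50.1 in TGFB1 spheroids (-1.66 ± 0.28, adjusted p = 0.00334). Among 21 matrix glycoproteins and proteoglycans, 3 had a higher and 4 a lower interaction. The higher count became 6 without untreated spheroid 3, and the lower count 2 without untreated monolayer 1 or 3, untreated spheroid 1 or 2, or TGFB1 spheroid 2. Hspg2, the basement membrane proteoglycan perlecan, read 97.4, 108 and 115 in untreated and 181, 188 and 188 in TGFB1 monolayers, and 189, 164 and 178 in untreated and 81.3, 41 and 76.1 in TGFB1 spheroids. Dcn, the small proteoglycan decorin, read 1223, 1440.0 and 1334 in untreated and 635, 580.1 and 595 in TGFB1 monolayers, and 256, 247 and 232 in untreated and 1064, 458 and 388 in TGFB1 spheroids. Both were opposite genes without overlap within a culture, Hspg2 falling in spheroids (-2.26 ± 0.29, adjusted p = 0.000678) and Dcn rising there (2.37 ± 0.40, adjusted p = 0.00324). Spp1, osteopontin, took 4.09% to 7.92% of the signal in TGFB1 spheroids and at most 1.53% in untreated ones. It read 14644, 14045 and 4019 in untreated and 80758, 58384 and 44499.7 in TGFB1 spheroids and 117 to 171 in monolayers (2.49 ± 0.59, adjusted p = 0.0165).

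Of 19 matrix proteases and inhibitors, 6 had a higher and 2 a lower interaction, and the lower count became 5 with equal summed signal. Mmp2, gelatinase A, read 1.96, 1.89 and 2.46 in untreated and 14.4, 10.7 and 9.29 in TGFB1 monolayers, and 0.342, 0.797 and 0.507 in untreated and 26.6, 35.9 and 29.6 in TGFB1 spheroids and rose in both cultures, more in spheroids (2.37 ± 0.25, adjusted p = 0.000235). Plat, tissue plasminogen activator, read 51.4, 56.6 and 55.9 in untreated and 10.2, 19.9 and 19.7 in TGFB1 monolayers, and 103, 105 and 129 in untreated and 197, 116 and 171 in TGFB1 spheroids. It fell in monolayers (-1.72 ± 0.24), while its spheroid effect was uncalled (0.49 ± 0.24), an interaction of 2.21 ± 0.34 (adjusted p = 0.00212). Integrins responded in both patterns. Itgb1, the shared beta 1 subunit, read 431, 465 and 489 in untreated and 1078, 929 and 895 in TGFB1 monolayers, and 730.5, 661 and 808 in untreated and 855, 963 and 788 in TGFB1 spheroids and was classed as lost (-0.82 ± 0.15, adjusted p = 0.00575), and Itgav had a lower interaction too (-0.76 ± 0.18, adjusted p = 0.0174). Itga2, a collagen-binding subunit, was at 0.0151 to 1.93 outside TGFB1 spheroids and read 11.1, 45 and 23.9 in them (3.68 ± 0.61, adjusted p = 0.00282), and Itga11, another collagen-binding subunit, rose in spheroids (2.48 ± 0.34, adjusted p = 0.000997). Smooth muscle actin Acta2 and transgelin Tagln, far more abundant in monolayers, had higher interactions (2.48 ± 0.73 and 1.58 ± 0.44) whose calls were lost in 11 and 8 of 12 fits. Among those fits, Acta2 was called only without untreated spheroid 3, and Tagln only without TGFB1 monolayer 1, untreated spheroid 3, TGFB1 spheroid 1 or TGFB1 spheroid 3. Fhl2, a LIM-domain partner of actin regulators, rose in both cultures, more in spheroids (0.86 ± 0.17, adjusted p = 0.00651).

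Most chaperone genes of the endoplasmic reticulum, whose products fold secreted and membrane proteins, rose in monolayers, and none was called higher in spheroids. Of 18 tested genes, 13 rose and 0 fell in monolayers, where 9.12% of all genes rose. In spheroids 0 rose and 4 fell, a share near the 16.8% of all genes that fell there. The interaction was lower for 8, beside 7.11% of all genes, and higher for 0, and its median was -0.50 beside -0.01 over all genes. Many of these genes are known targets of the transcription factor ATF6, which acts with NF-Y at the endoplasmic reticulum stress response element, CCAAT followed by 9 bases of any kind and CCACG. In the 250 bases before the start sites that RefSeq gives on GRCm38.p6, with both strands searched, this motif was found in 7 of 16 chaperone genes with an entry (43.8%), in 17 of 9637 tested genes with an entry (0.176%) and in 35 of all 27025 entries (0.13%). Since many genes of the list are known targets through this element, its high share there is no result about TGFB1. The 4 of the 7 with a called interaction are shown because they hold both the motif and a called interaction. The capitals mark the motif, read on either strand, and for Hspa5 the motif alone is printed (chr2:34772025-34772043, plus strand), which lies inside an annotated exon. The other stretches, from which bases inside annotated exons are left out, are Hsp90b1 (chr10:86705510-86705694, minus strand), Canx (chr11:50325674-50325923, minus strand) and Creld2 (chr15:88819396-88819645, plus strand), each 5′ to 3′ on the strand of the gene.
Hspa5: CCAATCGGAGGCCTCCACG
Hsp90b1: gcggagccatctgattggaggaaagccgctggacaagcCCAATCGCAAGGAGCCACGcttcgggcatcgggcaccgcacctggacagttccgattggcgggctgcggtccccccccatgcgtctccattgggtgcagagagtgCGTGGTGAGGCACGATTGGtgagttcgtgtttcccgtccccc
Canx: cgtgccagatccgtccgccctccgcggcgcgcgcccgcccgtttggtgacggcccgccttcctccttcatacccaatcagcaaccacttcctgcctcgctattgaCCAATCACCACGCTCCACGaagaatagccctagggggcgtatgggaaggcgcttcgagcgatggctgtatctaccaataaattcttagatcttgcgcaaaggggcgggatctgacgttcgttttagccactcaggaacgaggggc
Creld2: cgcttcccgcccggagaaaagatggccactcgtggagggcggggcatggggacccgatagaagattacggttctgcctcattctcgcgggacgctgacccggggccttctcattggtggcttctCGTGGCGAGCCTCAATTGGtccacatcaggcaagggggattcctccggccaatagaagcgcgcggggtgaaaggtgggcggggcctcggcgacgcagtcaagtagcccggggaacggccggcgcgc

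Hsp90b1 (ENSMUSG00000020048, chromosome 10, 86690209 to 86705509), the chaperone GRP94, carries the motif at 2 places, once on each strand. It read 822, 836 and 839.8 in untreated and 1386, 1370.5 and 1329 in TGFB1 monolayers, and 804, 839.8 and 798 in untreated and 604, 498 and 717 in TGFB1 spheroids. Treated monolayers were above and treated spheroids below their untreated libraries without overlap, and the interaction was -1.15 ± 0.16 (adjusted p = 0.000995). Canx, the lectin chaperone calnexin, read 461, 453 and 449 in untreated and 606, 573 and 564 in TGFB1 monolayers, and 414, 399 and 369 in untreated and 299, 257 and 319 in TGFB1 spheroids and was likewise opposite (-0.79 ± 0.12, adjusted p = 0.00192), as was P4hb, protein disulfide isomerase (-0.90 ± 0.14, adjusted p = 0.00241), which is not among the 7.

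Hspa5, the chaperone BiP, read 808, 863 and 887 in untreated and 1473, 1208 and 1211 in TGFB1 monolayers, and 1076, 1342 and 906 in untreated and 728, 664 and 1156 in TGFB1 spheroids. Its monolayers separated, its spheroids overlapped, and neither single effect was called, although the fall in spheroids was with equal summed signal. The Hspa5 interaction of -1.01 ± 0.28 (adjusted p = 0.0346) lost its call in 10 of 12 fits, all except those without untreated spheroid 3 or TGFB1 spheroid 3, with an adjusted p up to 0.0818. Creld2, a disulfide isomerase, read 60.9, 64 and 66.9 in untreated and 119, 107 and 108 in TGFB1 monolayers, and 59.3, 66.8 and 56.5 in untreated and 61.2, 49.2 and 65.1 in TGFB1 spheroids (-0.85 ± 0.15, adjusted p = 0.00392). Hyou1, the chaperone GRP170, rose by 0.97 in monolayers, with an uncalled -0.11 in spheroids (-1.09 ± 0.20, adjusted p = 0.0053). Calr, Pdia6 and Dnajc3 carry the motif and had interactions of -0.36 ± 0.12, -0.36 ± 0.14 and -0.53 ± 0.17, which were not called. Outside the chaperone list, 10 tested genes carry the motif, and their interaction was lower for 0 and higher for 2. Of 9 chaperone genes with an entry and no motif, 3 had a lower interaction and 6 rose in monolayers, beside 4 and 5 of the 7 with the motif. Without 1 library the count of chaperones with a lower interaction was 6 to 11, and with equal summed signal it was 16. Of 18 genes of the integrated stress response, which is driven by ATF4, 0 had a called interaction (median 0.27), and 1 did without any 1 of the untreated spheroids or TGFB1 spheroid 1.

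**Figure D5:**
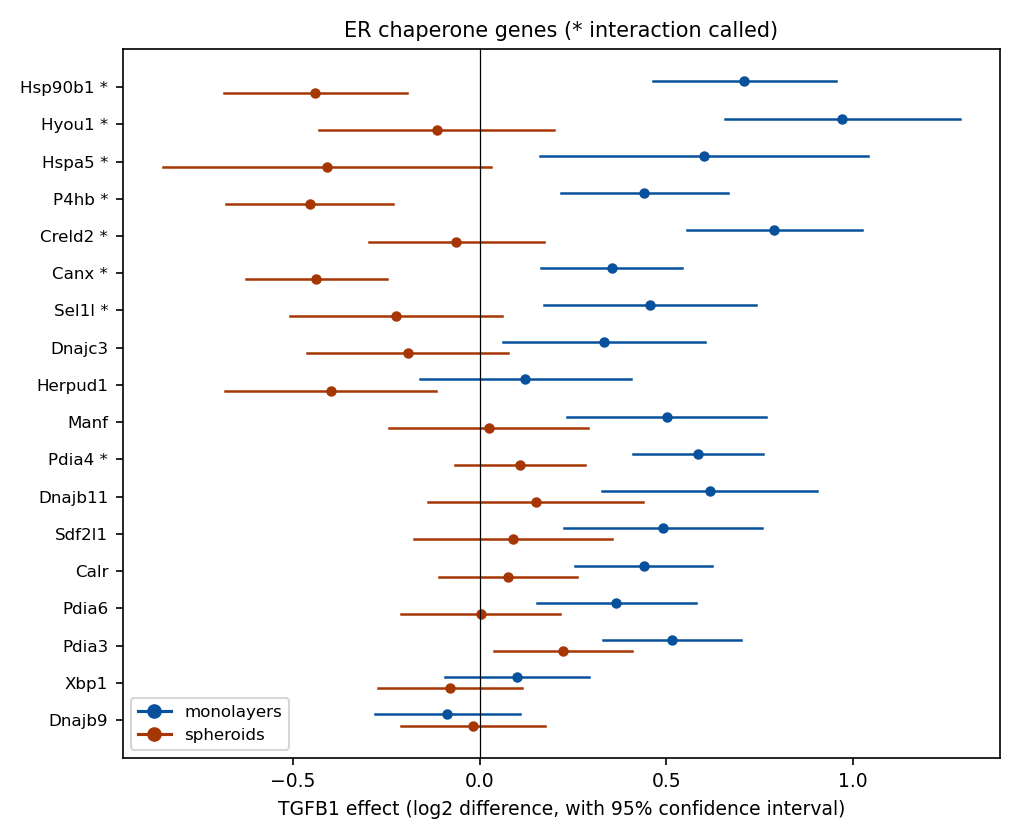
TGFB1 effects in monolayers and in spheroids as log2 differences with 95% confidence intervals (x axis) for 18 chaperone genes of the endoplasmic reticulum, ordered by the interaction, with an asterisk where it was called. The monolayer effects lie to the right of 0 for 13 genes called there, and no spheroid effect is called to the right of 0.

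Genes of sugar metabolism had lower interactions where called. Of 17 glycolysis genes, 1 rose and 1 fell in monolayers, 2 rose and 11 fell in spheroids, and 4 had a lower interaction (median -0.60), a count that became 9 with equal summed signal and 10 without TGFB1 spheroid 3. Pfkl, a phosphofructokinase subunit, read 68.6, 56.2 and 62.1 in untreated and 79.9, 86.9 and 88.3 in TGFB1 monolayers, and 222, 221 and 225 in untreated and 90.3, 87.8 and 146 in TGFB1 spheroids (-1.52 ± 0.23, adjusted p = 0.00179). Hk1, hexokinase 1, read 4.36, 3.65 and 3.90 in untreated and 15.7, 11.9 and 12.3 in TGFB1 monolayers, and 73.9, 67.2 and 50.2 in untreated and 52.4, 96.7 and 72.5 in TGFB1 spheroids. It was a lost rise, not called with a pseudocount of 5, and untreated spheroids exceeded treated monolayers (-1.33 ± 0.29, adjusted p = 0.0122). Eno1 (-1.15 ± 0.19, adjusted p = 0.00309) and Pgam1 (-1.03 ± 0.22, adjusted p = 0.0111) were also lower. Of 17 hypoxia response genes, the interaction was lower for 5, among them the kinase Pdk1 (-1.39 ± 0.32, adjusted p = 0.0148), and higher for Egln3, an oxygen-sensing hydroxylase (1.61 ± 0.32, adjusted p = 0.00732), though not with a pseudocount of 0.1. The count of 5 became 1 without any 1 of the untreated monolayers, TGFB1 monolayer 2 or 3, untreated spheroid 2 or TGFB1 spheroid 2. It became 2 without TGFB1 monolayer 1 or untreated spheroid 1, and 3 without TGFB1 spheroid 1.

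Most genes of cholesterol synthesis fell in spheroids. Of 22 tested genes, 19 fell there, beside 16.8% of all genes, and 0 changed in monolayers, while the interaction was lower for 2, Hsd17b7 (-1.61 ± 0.47, adjusted p = 0.0398) and Tm7sf2 (-0.87 ± 0.21, adjusted p = 0.0166), and higher for 0. The lower share was near the 7.11% over all genes. Among the fits without 1 library, Hsd17b7 was called in those without untreated monolayer 1, untreated spheroid 3 or TGFB1 spheroid 3. The median interaction was -0.96, and 21 of 22 were negative. The count of 2 became 11 without untreated spheroid 3, 8 without TGFB1 spheroid 3, 3 without untreated monolayer 1, 4 with equal summed signal and 18 when libraries were weighted by quality, and 1 in the fits without untreated monolayer 2 or 3, any TGFB1 monolayer, untreated spheroid 1 or 2, or TGFB1 spheroid 1 or 2. The difference between the cultures for this list as a whole was not tested.

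Of 24 mitosis genes, 15 rose in spheroids, beside 18.8% of all genes, and 0 changed in monolayers. The interaction was higher for 5 (median 0.50), beside 8.72% of all genes. That count became 1 with equal summed signal and with a pseudocount of 5, 8 with one of 0.1, and 14 with quality weights. It became 9 without untreated monolayer 2, 8 without TGFB1 spheroid 1, 3 without TGFB1 monolayer 1 or untreated spheroid 3, 2 without untreated spheroid 1 or 2 or TGFB1 spheroid 2 or 3, and 1 without any other monolayer library. Ccnb2, cyclin B2, was at 52 to 86.5 in monolayers and read 2.90, 1.35 and 2.12 in untreated and 3.22, 4.16 and 5.43 in TGFB1 spheroids (1.17 ± 0.28, adjusted p = 0.017), a rise at levels far below those of monolayers. Plk2, a p53-induced kinase, read 40.8, 36.7 and 45.7 in untreated and 299, 113 and 105 in TGFB1 monolayers, and 179, 183 and 93.9 in untreated and 19.98, 72.9 and 109 in TGFB1 spheroids, with an interaction of -3.28 ± 0.80 (adjusted p = 0.0186). The growth regulator Myc had one of -2.14 ± 0.57 (adjusted p = 0.0276), a call lost in 7 of 12 fits (all 3 without an untreated monolayer, and those without untreated spheroid 1 or 2 or TGFB1 spheroid 1 or 2).

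Of 22 NF-kB and inflammatory genes, 5 had a higher and 0 a lower interaction, and the higher count became 8 without TGFB1 spheroid 1 and 3 with equal summed signal. Lcn2, the iron-siderophore binding lipocalin 2, was under 1 in monolayers and read 9.16, 8.97 and 5.87 in untreated and 66.1, 355 and 488 in TGFB1 spheroids (4.63 ± 0.79, adjusted p = 0.00328). Il1a, interleukin 1 alpha, read 2.00, 2.04 and 0.503 and 10.4, 105 and 67.1 there (4.26 ± 0.90, adjusted p = 0.00994). TGFB1 spheroid 1 was the lowest treated library for both, as for S100a8. The subunits Nfkb1 and Nfkb2 had small interactions of 0.64 ± 0.13 and 0.55 ± 0.12, which were not called with equal summed signal. Clu, the secreted chaperone clusterin, read 412, 523 and 479.8 in untreated and 570.2, 523 and 529 in TGFB1 monolayers, and 3671, 3530.0 and 4429 in untreated and 356, 620.5 and 1431 in TGFB1 spheroids, a gained fall (-2.70 ± 0.52, adjusted p = 0.00624).

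Of 15 tested markers of the ovarian surface and mesothelium, 1 rose and 4 fell in monolayers, 0 rose and 9 fell in spheroids, and the interaction was higher for 1 and lower for 4. The higher count became 0 in 11 of 12 fits without 1 library, all except that without TGFB1 spheroid 1. The lower count became 2 without any 1 of the untreated monolayers, TGFB1 monolayer 2 or 3, untreated spheroid 1 or 2, or TGFB1 spheroid 2. Aldh1a1, a retinaldehyde dehydrogenase used as a stem cell marker, was at 446 to 595 in monolayers and read 744, 721 and 426 in untreated and 42, 22.9 and 225 in TGFB1 spheroids. TGFB1 spheroid 3 was nearest to the untreated spheroids, and the call (-3.28 ± 0.87, adjusted p = 0.0282) was lost in 9 of 12 fits, all except those without TGFB1 monolayer 1, untreated spheroid 3 or TGFB1 spheroid 3. Lrrn4, a mesothelial membrane protein, fell in spheroids from levels already low (-1.64 ± 0.39, adjusted p = 0.017), an interaction not called with a pseudocount of 5. Among markers of other cell types, the endothelial cadherin Cdh5 read 3.44, 1.41 and 0.668 in untreated and 51.3, 32.8 and 23.9 in TGFB1 spheroids (3.50 ± 0.48, adjusted p = 0.000976). In monolayers it was under 1, at 0.0144 to 0.0963 in untreated and 0.146 to 0.438 in TGFB1 libraries. The endothelial markers Kdr, Tek and Tie1 stayed under 1. Pecam1 overlapped in spheroids (1.02 to 2.14 untreated, 0.996 to 1.95 with TGFB1), and Emcn went the other way there (0.653 to 1.07 and 0 to 0.117). Ptgs2, cyclooxygenase 2 (-1.22 ± 0.43, adjusted p = 0.0818), and Ly6a, the stem cell antigen Sca-1 (-0.11 ± 0.40, adjusted p = 0.883), had uncalled interactions.

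Responses in the same direction were larger in spheroids for 61 genes (0.452% of those tested), 59 of them rises, and smaller for 27 (0.2%), of which 22 were rises. Ptgfrn, a tetraspanin partner, read 0.13, 0.183 and 0.164 in untreated and 0.953, 0.902 and 0.73 in TGFB1 monolayers, and 0.195, 0.0837 and 0.331 in untreated and 95.5, 71.7 and 56.7 in TGFB1 spheroids. Ptgfrn passed the filter only through the TGFB1 spheroids. Cotl1, which binds filamentous actin, read 4.62, 3.87 and 4.93 in untreated and 57, 19 and 14.2 in TGFB1 monolayers, and 4.94, 5.10 and 4.46 in untreated and 489.6, 429 and 285 in TGFB1 spheroids. Angptl2, a secreted angiopoietin-like protein, had the same form, below 2 in monolayers and at 45.2, 43.1 and 30.9 in TGFB1 spheroids. In these genes TGFB1 monolayers rose above untreated ones without overlap and TGFB1 spheroids rose far more, with interactions of 5.26 ± 0.25 (adjusted p = 1.05e-06), 3.82 ± 0.56 (adjusted p = 0.00147) and 4.10 ± 0.22 (adjusted p = 2.46e-06). Ctla2a, a cysteine protease inhibitor, read 73.8, 81.9 and 97.8 in untreated and 2739, 1564 and 1476 in TGFB1 monolayers, and 203, 215 and 319.6 in untreated and 1097, 561 and 543 in TGFB1 spheroids. Wnt5a, a WNT ligand of the noncanonical branch, read 5.40, 6.65 and 5.86 in untreated and 60.1, 36.3 and 31 in TGFB1 monolayers, and 12.1, 13.5 and 9.61 in untreated and 19.6, 19.1 and 18.4 in TGFB1 spheroids. S1pr1, a receptor for sphingosine 1-phosphate, read 0.491, 0.513 and 0.577 in untreated and 46.5, 28.3 and 25.9 in TGFB1 monolayers, and 0.195, 0.234 and 0.0872 in untreated and 6.88, 7.79 and 5.68 in TGFB1 spheroids. These 3 rose in both cultures and less in spheroids, with interactions of -2.92 ± 0.43 (adjusted p = 0.00159), -1.92 ± 0.29 (adjusted p = 0.00181) and -1.73 ± 0.28 (adjusted p = 0.00248), of which that of S1pr1 was not called with a pseudocount of 0.1. The rise of Wnt5a in spheroids was not called with equal summed signal (0.49, adjusted p = 0.084). The count of larger responses was 152 without TGFB1 spheroid 3, 27, 24 and 23 without untreated monolayer 1, 2 or 3, 30 and 28 without TGFB1 monolayer 2 or 3, and 38 without untreated spheroid 2. The count of smaller ones was 17 without untreated spheroid 2.

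Called interactions of WNT genes were mostly lower. Of 13 tested ligands, antagonists and targets, 7 rose and 0 fell in monolayers, 5 rose and 4 fell in spheroids, and the interaction was lower for 4 and higher for 1 (median -0.62). Wnt9a read 20.8, 21.7 and 22.2 in untreated and 93.6, 60.5 and 56.5 in TGFB1 monolayers, and 9.44, 10.4 and 9.94 in untreated and 4.66, 6.71 and 7.36 in TGFB1 spheroids, an opposite gene (-2.23 ± 0.26, adjusted p = 0.000449). Dkk2, a WNT antagonist, read 1.64, 2.01 and 2.52 in untreated and 9.80, 11.2 and 9.94 in TGFB1 monolayers, and 0.455, 0.166 and 0.805 in untreated and 0.339, 0.822 and 0.465 in TGFB1 spheroids, a rise in monolayers that was lost at spheroid levels under 1 (-1.82 ± 0.27, adjusted p = 0.00159). Lef1, a transcription factor of the pathway, had the higher interaction (1.12 ± 0.26, adjusted p = 0.0159).

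The authors' deposited table gave an interaction term for 12874 of the tested genes. In that table, 1975 of the 1977 genes called here that it lists had the same sign (99.9%), which uses the same 12 libraries and is no independent test. After conversion from the natural log scale, the authors' deposited table gave 6.38 for Slpi, 7.21 for Chil1, -4.55 for Gdf6, 2.90 for Tgfb1 and 5.32 for Timp1 as log2 interactions. Sizes differed more for some genes that are low in some groups. The authors' values were 7.10 for Prg4, 6.58 for Actn3, 5.08 for Dact1 and -0.57 for S1pr1. The values here were 4.91, 4.17, 2.11 and -1.73.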

How the data were processed

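RNA from 12 libraries of 1 mouse ovarian surface epithelial cell line was sequenced in 4 groups of 3. The table deposited by the authors names its values TPM, but the sums per library run from 955433 to 1166749, so they were treated as a signal: TPM scaled per library by a factor that is not given in the sources used here. Kallisto 0.44.0, sleuth 0.30.0 and the build GRCm38 are named per the submitters' processing notes, without the order of steps. The table's coefficients deposited by the authors for culture, treatment and their product are on a natural log scale and were divided by the natural log of 2. Because the values were not plain TPM, the scaling was varied among the alternatives. Depth is unknown, since neither counts nor whole-read steps were used, so no counting interval is given.

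Genes at 1 scaled TPM or more in 3 or more of 12 libraries were fitted as log2(scaled TPM + 1) in limma 3.58.1 (R 4.3.3), with 1 mean per group and a variance trend. The spread of a gene was shared by all groups. The 3 two-sided contrasts were adjusted by Benjamini-Hochberg over all 13509 tested genes and called at an adjusted p under 0.05. On simulated data with known changes, this interaction fit over 13509 genes recovered 74% of changes of size 1 and 87% of size 2 on the log2 scale. Of the simulated calls, 5.85% were false. The changes were planted only in genes well above the lowest levels, and each gene had the same spread in all groups. Recovery for low genes, or where groups differ in spread, was therefore not measured. Named genes were those called, with a mean of at least 10 in 1 group or more, no clone name, and libraries that did not overlap in the responding culture: the 6 with the largest interaction per class and direction, and 4 for same-direction classes. Genes of the lists were named in addition, by the smallest interaction p or for their role, with Tgfb1, Snai1, Ptgs2, Ly6a and Brca1. Brca1 had an uncalled interaction of 0.05 ± 0.21. Members and lists were chosen with earlier results of these data known. Positions are from GENCODE M21 (98.4% of tested genes matched) and promoter sequences from RefSeq on GRCm38.p6. Python 3.11.15, pandas 2.3.3, numpy 2.4.6 and matplotlib 3.10.9 were used. Other tables of the series were not used here, and 2 genes that the rule or the lists would have named are not reported. Alternatives changed the pseudocount, filter, scaling, variance trend, library weights, replicate block and the libraries included.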

Additional observations from a re-analysis of the deposited data

Results flagged for a closer look

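The TGFB1 effect differed between the cultures by a test of the difference itself, limma's interaction term, for 2138 genes, and 175 of these had called effects of opposite sign. The named opposite genes with the largest interactions were Chil1 (log2 difference 6.64), Slpi (6.27), Prg4 (4.91), Actn3 (4.17) and Rspo3 (3.98), for which the effect was higher in spheroids. The effect was lower in spheroids for Kirrel3 (-4.22), Gdf6 (-4.16), Dpysl3 (-3.52), Etl4 (-3.48), Synpo (-3.35) and Fbln5 (-3.14). For Kirrel3, 1 untreated spheroid library was several-fold above the other two.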

How the results depend on the processing

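Called genes kept the direction of their interaction under each alternative run that tested them. Of 163 named genes with a called interaction, 115 kept the call in each fit without 1 library that tested them. In all other settings that tested them, 109 kept it. Aqp1, Col5a3, Itga11, Pkp1, Pmp2, Prss42, Ptgfrn, Serping1 and Snai3 are among the 115. They were tested in only 9 of the 12 fits without 1 library. Without 1 library, the interaction count was 1307 to 2658, with 709 to 1439 higher (709 without TGFB1 spheroid 2) and 597 to 1219 lower. The lower count was 597 and 620 without TGFB1 monolayer 2 or 3, 613 and 605 without untreated monolayer 1 or 3, 605 and 619 without untreated spheroid 1 or 2, and 598 without TGFB1 spheroid 2. Opposite responses numbered 80 to 267, lost 60 to 128, gained 311 to 696, larger 23 to 152 and smaller 17 to 29. Effects in monolayers numbered 1220 to 2824, with 1274, 1330 and 1220 without untreated monolayer 1, 2 or 3 and 1261 without TGFB1 monolayer 1. Effects in spheroids numbered 3095 (without TGFB1 spheroid 2) to 4939. Library quality weights gave 4385 interactions, 2343 higher and 2042 lower, 701 opposite, 504 larger, 62 smaller and 6431 effects in monolayers. Equal summed signal gave 732 higher and 1903 lower. With untreated monolayers 1 and 2 averaged as 1 library, the counts were 638 lower, 106 opposite, 27 larger and 1307 in monolayers. A pseudocount of 5 gave 73 lost and 398 gained, the stricter filter of at least 5 gave 402 gained, and no filter gave 28 larger. The cause of these moves was not tested, beyond fewer genes or libraries where the setting removes them. With repeated rows removed, chosen after seeing the data, the interaction count was 2115. Same-numbered libraries did not deviate together (r -0.32 to 0.19 over 18 pairs, 2 of them over 0.1, and 4 best with their own number), so the replicate numbers were not taken as pairs. A replicate block gave 1827 interactions, 1034 higher and 793 lower, with 142 opposite, 99 lost, 566 gained, 47 larger and 27 smaller responses, and 1994 and 4472 effects in monolayers and spheroids.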
